A study of Caenorhabditis elegans with 2 samples.

Results

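A one-directional promoter is taken here as sequence that lies near transcript starts on a single DNA strand, so that binding there faces genes read in 1 direction. Summits, the point of highest enrichment in each peak, were placed on protein-coding transcript starts. Kept were summits no more than 1000 bp upstream and 200 bp downstream of a start, with such starts on 1 strand and none on the other. Of the 4250 summits of LIN-39 in the list made from both replicates, 1631 met this rule (38.4%, 95% Wilson interval 36.9 to 39.8%). A further 547 summits (12.9%) met it for starts on both strands and are called divergent, and 2072 (48.8%) lay at no promoter.

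The study profiled LIN-39 by ChIP-seq, in which DNA bound by a protein is recovered with an antibody and sequenced. There was 1 group of 2 biological replicates, both whole Caenorhabditis elegans at the third larval stage (L3), with males and females pooled according to the labels, of strain OP18 obtained from the Caenorhabditis Genetics Center (CGC). This strain has the genotype unc-119(ed3) III; wgIs18, where wgIs18 is the inserted transgene that carries lin-39 tagged with eGFP. The labels give no second genotype, stage or treatment, and both replicates carry 1 donor identifier, so they are separate samples of 1 strain. Whole animals were used, so a peak does not say in which cells binding took place, and the level of the tagged protein relative to the animal's own LIN-39 is not given in the sources used here.

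LIN-39 is a Hox protein that patterns the midbody region of C. elegans. It keeps the vulval precursor cells from fusing with the surrounding epidermis, acts in their later fate choice, and steers the migration of Q neuroblast descendants. Hox proteins bind DNA with TALE homeodomain partners, which in the worm include the Pbx-type protein CEH-20 and the Meis-type protein UNC-62, and the joint Hox and Pbx site is written here as TGATNNAT. Many worm transcripts are trans-spliced, which replaces their first bases by a short leader, so an annotated start can lie downstream of where transcription begins. Some worm genes also form operons, closely spaced genes on 1 strand that are transcribed together from the promoter of the first.

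The sequences below run from 50 bp before to 50 bp after the summit, written 5′ to 3′ on the strand of the start, from the RefSeq genome of the ce11 build. The first 3 are among the strongest members and have a GC content above the upper quartile of members, the next 4 are the strongest with the composite Hox and Pbx motif, and the last 2 have a start within 60 bp downstream. Capitals mark matches on either strand to the composite motif TGATNNAT, the GAGA repeat GAGAGA, the Sp1-like motif CCCGCC, the E2F motif TTCGCGC and the run GCGCGC.
rpl-3, chrIII:3867534-3867634, plus strand: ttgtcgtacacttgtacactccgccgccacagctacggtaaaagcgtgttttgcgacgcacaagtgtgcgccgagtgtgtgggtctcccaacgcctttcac
C18B12.4, chrX:15040891-15040991, minus strand: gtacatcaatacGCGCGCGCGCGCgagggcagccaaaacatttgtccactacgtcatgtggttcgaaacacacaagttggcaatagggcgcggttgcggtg
T28B11.1, chrV:10715915-10716015, minus strand: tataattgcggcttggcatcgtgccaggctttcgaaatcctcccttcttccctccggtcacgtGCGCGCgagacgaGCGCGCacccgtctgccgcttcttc
T23G4.127, chrIV:13699624-13699724, minus strand: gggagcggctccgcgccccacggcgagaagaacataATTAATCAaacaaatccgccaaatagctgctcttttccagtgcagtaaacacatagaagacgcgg
sir-2.2, chrX:13329023-13329123, plus strand: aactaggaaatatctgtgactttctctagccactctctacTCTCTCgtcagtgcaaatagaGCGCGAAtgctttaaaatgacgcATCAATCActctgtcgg
unc-76, chrV:15071127-15071227, plus strand: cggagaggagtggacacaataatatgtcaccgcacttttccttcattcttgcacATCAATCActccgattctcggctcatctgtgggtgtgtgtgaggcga
F55A11.6, chrV:11782941-11783041, plus strand: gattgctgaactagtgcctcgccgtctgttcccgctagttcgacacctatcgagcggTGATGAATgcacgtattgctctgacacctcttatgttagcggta
hsp-3, chrX:6092131-6092231, minus strand: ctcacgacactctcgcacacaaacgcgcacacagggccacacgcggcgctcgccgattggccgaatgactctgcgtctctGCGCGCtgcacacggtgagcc
M01H9.3, chrIV:4470037-4470137, minus strand: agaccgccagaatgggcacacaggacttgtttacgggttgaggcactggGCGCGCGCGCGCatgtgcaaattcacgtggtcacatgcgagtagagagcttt
In the rpl-3 window no searched motif was marked, and its GC content was 56.4%. The C18B12.4 and M01H9.3 windows each hold a long run of alternating G and C. The T23G4.127, unc-76 and F55A11.6 windows hold the composite motif and no other marked motif, while sir-2.2 holds the composite, GAGA and E2F motifs within 1 window. The hsp-3 window was the most GC-rich of those printed, at 66.3%.

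One-directional promoter sequence held fewer LIN-39 summits for its length than divergent promoter sequence, and more than the rest of the genome. The rule took in 23.9 Mb as one-directional sequence (23.8% of the genome) and 2.34 Mb as divergent sequence (2.33%). The density was 68.3 summits per Mb in one-directional sequence (95% exact Poisson interval 65.1 to 71.7), 234 per Mb in divergent sequence (215 to 254) and 28.0 per Mb elsewhere (26.8 to 29.2). The one-directional density was thus 0.292 of the divergent density. With promoters narrowed to 500 bp upstream and 100 bp downstream the ratio was 0.187. It was 0.331 in the strongest 4250 peaks of replicate 1 and 0.277 in those of replicate 2. These intervals, and all that follow, cover the counting of peaks only, and the sequencing depth behind the peaks is unknown from the files used here. With 1 group of 2 samples no test between conditions is possible, so no p-values are given.

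The 1631 members fell evenly on the strands, with 820 (50.3%) at starts on the plus strand. They had starts of 1 gene in 1583 cases, of 2 genes in 46 and of 3 genes in 2. With each member given to its nearest start, 1527 genes held a member, which was 7.8% of the 19588 protein-coding genes with one-directional promoter sequence. Most of these genes, 1434, had 1 member, 83 had 2, 9 had 3 and 1 had 4. The gene with 4 was din-1, whose product is a nuclear corepressor that partners the steroid receptor DAF-12. Its summits lay 700, 576 and 514 bp upstream and 61 bp downstream of 4 different starts, with signals of 106, 80.9, 35.3 and 34.1. The weaker pair differed between replicates, since the summit 514 bp upstream had no overlapping peak in replicate 1 and ranked 2715 in replicate 2, and the summit 61 bp downstream ranked 1148 in replicate 1 and 8109 in replicate 2. Among the genes with 3 members were kin-1, the catalytic subunit of protein kinase A, gsa-1, the Gs alpha protein that acts upstream of it, unc-73, a Trio-type guanine exchange factor of axon guidance, and hlh-30, the worm relative of TFEB. Of the genes with a member, 15 also held a divergent summit.

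Members lay farther from their start than divergent summits did. The median member was 251 bp upstream (quartiles 502 and 121 bp upstream), against 142 bp upstream (224.5 and 60.5 bp) for divergent summits. Within 300 bp upstream lay 809 members (49.6%), against 434 divergent summits (79.3%), a difference of -29.7 percentage points (95% Newcombe interval -33.7 to -25.4). More than 500 bp upstream lay 412 members (25.3%), against 23 divergent summits (4.20%), a difference of 21.1 points (18.2 to 23.6). Downstream of the start the shares were 7.66% and 8.04%, and the interval of their difference, -3.23 to 2.06 points, spans 0. The 2 rules leave different room for distance, because starts on opposite strands limit how far a divergent summit can lie from the nearer one, so the density per Mb of sequence at each distance is the fairer comparison.

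By that measure the member density was highest from 200 to 100 bp upstream, at 165 summits per Mb (147 to 183), and next from 300 to 200 bp upstream, at 132 per Mb (116 to 149). It was 96.7 per Mb in the last 100 bp before the start, 36.4 per Mb in the first 100 bp after it and 21.2 per Mb in the second. Beyond 600 bp upstream it lay between 33.4 and 47.5 per Mb, against 28.0 per Mb in sequence at no promoter. Divergent sequence was denser at each matched distance with at least 20 divergent summits. From 200 to 100 bp upstream it held 561 per Mb, so that one-directional sequence held 0.293 of that density. From 400 to 300 bp upstream the densities were 93.4 per Mb in one-directional and 185 per Mb in divergent sequence. Replicate 1 was lower than replicate 2 at the peak, with 117 against 155 members per Mb from 200 to 100 bp upstream, and reached its highest density, 125 per Mb, from 300 to 200 bp upstream.

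**Figure D1:**
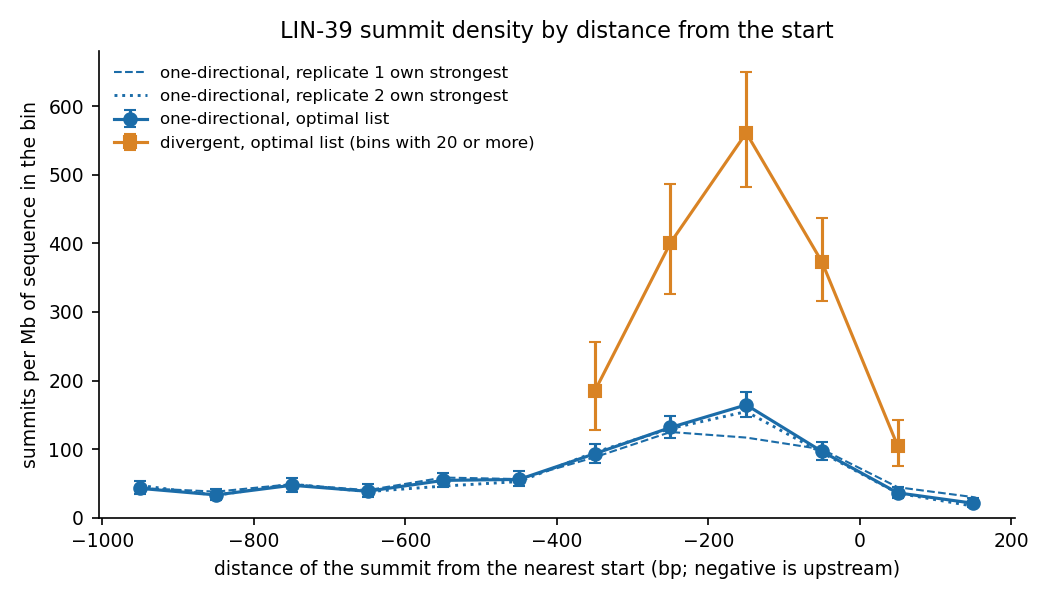
Summits per Mb of sequence (vertical axis) in 100 bp bins of distance from the nearest start (horizontal axis, bp, negative upstream). Blue points are one-directional summits of the optimal list with 95% exact Poisson intervals, dashed and dotted lines are the strongest peaks of replicate 1 and of replicate 2, and orange squares are divergent summits; one-directional density is highest, at 165 per Mb, from 200 to 100 bp upstream, where divergent density is 561 per Mb.

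At the edges of the rule, the members farthest inside the upstream limit were mbl-1 at 1000 bp upstream (signal 50.2) and bud-31 at 999 bp (121), and the summits just outside it were those of W05H12.1 (55.5) and fbxb-58 (139), both at 1002 bp. On the downstream side R13H4.2 at 196 bp (38.1) and mec-2 at 197 bp (40.3) were inside, and F09G8.5 at 201 bp (54.2) and Y39A1C.1 at 210 bp (58.9) were outside.

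The strongest members sat at genes of several kinds: signalling, transcription and cell cycle control, translation and energy metabolism. The signal is the authors' value for each peak, on a scale of each list that the sources used here do not define, and serves here to order peaks within a list. The member of highest signal (493) lay 63 bp upstream of egl-30, the Gq alpha protein, at chrI:1835502-1835716. Its replicate signals were 324 (rank 1) in replicate 1 and 169 (rank 12) in replicate 2, so it was near the top of both lists. The summit near tub-2, named for its Tubby-related product, had a signal of 366, 39 bp upstream, with 218 (rank 7) in replicate 1 and 165 (rank 14) in replicate 2. That of cdk-7, the kinase of cell cycle entry and of transcription initiation, had 338, 28 bp upstream, with 156 in replicate 1 and 186 in replicate 2, rank 10 in both. These 3 summits were high in both samples, and those of egl-30 and tub-2 also lay in range of the start of another gene.

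Several other leading members ranked far apart in the replicates. The rpl-3 summit, at a gene of the large ribosomal subunit, was 270 bp upstream with a signal of 324, and had 84.6 (rank 120) in replicate 1 and 244 (rank 2) in replicate 2. The C18B12.4 summit was 339 bp upstream with 309, and ran the other way, with 242 (rank 4) in replicate 1 and 68.7 (rank 304) in replicate 2. The cdc-48.1 summit, at a gene for the AAA ATPase that extracts ubiquitinated proteins, was 180 bp upstream with 229, and had 29.5 (rank 1584) in replicate 1 and 202 (rank 8) in replicate 2. That is the widest split among the 20 strongest members. T28B11.1 (260.3) and pcyt-2.1 (287), a gene of phosphatidylethanolamine synthesis, ranked 8 and 5 in replicate 1 and 259 and 252 in replicate 2. The nspc-17 summit (265) ranked 269 in replicate 1 and 7 in replicate 2. The remaining members of the 20 strongest were F37F2.2, dld-1 (the dihydrolipoamide dehydrogenase of mitochondrial complexes), rps-28, cox-5B, cbp-1 (the CBP/p300 acetyltransferase), T28F4.5, serp-1.1, rpl-35, eelo-2, otub-2 and Y39A1A.9, with signals from 222 to 287.

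Distances among these 20 ranged from 26 bp upstream, at cox-5B, a subunit of cytochrome c oxidase, to 976 bp upstream, at otub-2. The strongest member of each chromosome was that of egl-30 on I, cdc-48.1 on II, rpl-3 on III, dld-1 on IV, T28B11.1 on V and C18B12.4 on X. The summits near F37F2.2 and pcyt-2.1 each lay within 200 bp of a snoRNA gene, that of F37F2.2 between genes and that of pcyt-2.1 in an intron of pcyt-2.1.

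Members made up a larger part of the strong end of the list than of its weak end. Their median signal was 54.1 (quartiles 41.1 and 78.8), against 61.8 (45.4 and 91.6) for divergent summits and 49.4 (39.6 and 69.0) for summits at no promoter. The 100 strongest peaks held 50 members, 25 divergent summits and 25 at no promoter. The 1000 strongest held 427 members, 180 divergent and 393 at no promoter, and the 1000 weakest held 366, 86 and 548.

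The replicates gave peaks at nearly all members but agreed less on their order. A peak of replicate 1 overlapped 1566 members and a peak of replicate 2 overlapped 1622, out of 30000 and 27572 peaks in the replicates' own lists. Members come from a list made from both replicates, and these own lists are far longer. Such overlap was therefore largely set in advance and is no independent support. Among each replicate's own 4250 strongest peaks, 1226 members were found in replicate 1, 1310 in replicate 2 and 955 in both (58.6%, 56.1 to 60.9%). The share in both was 66.4% for divergent summits, a difference of -7.81 points (-12.3 to -3.11), and 52.6% for summits at no promoter, a difference of 5.95 points (2.72 to 9.15). A further 271 members were among the strongest of replicate 1 alone, 355 of replicate 2 alone and 50 of neither. In 4 equal groups of members, strongest to weakest by signal, the share in both replicates was 96.6, 82.1, 45.2 and 10.3%. That signal comes from the same 2 replicates, so a fall of this kind is partly built in. Over the 1557 members with a peak in both lists, the ranks in the replicates had a Spearman rho of 0.35, as a description. The same value was 0.45 for divergent summits and 0.21 for summits at no promoter. The median shift between the pooled summit and the replicate's summit was 13 bp for replicate 1 peaks and 17 bp for those of replicate 2.

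**Figure D2:**
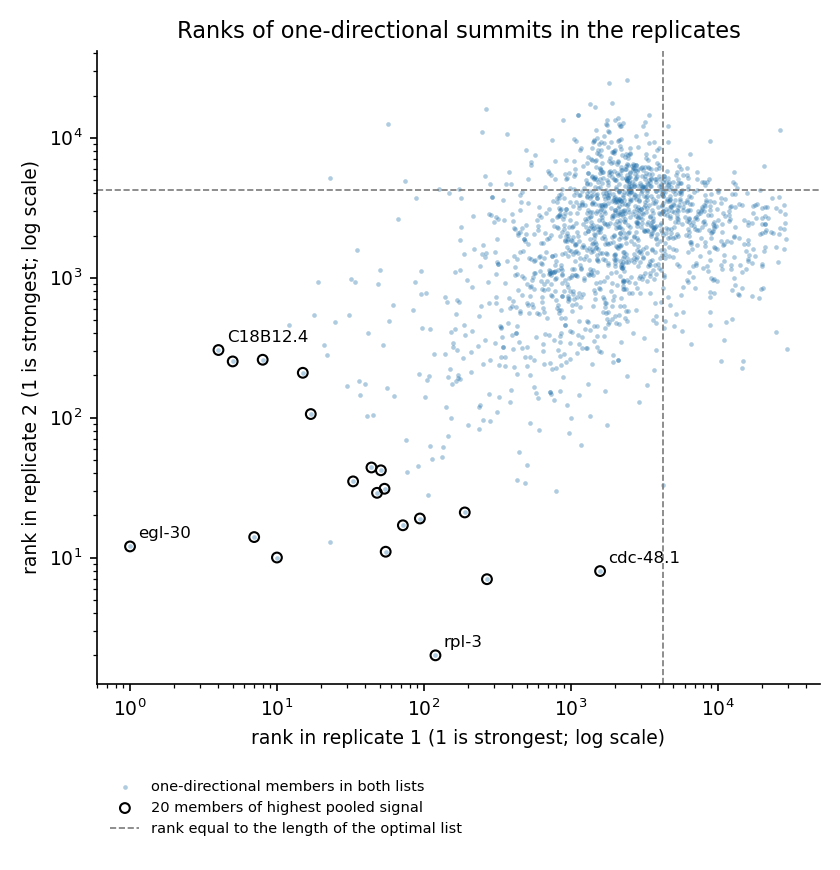
Rank of each one-directional member's overlapping peak in replicate 1 (horizontal, log scale, 1 is strongest) and in replicate 2 (vertical, log scale); black circles are the 20 members of highest pooled signal and dashed lines mark rank 4250, the length of the optimal list. egl-30 ranks 1 and 12 and is high in both, whereas C18B12.4 ranks 4 and 304, and cdc-48.1 ranks 1584 and 8.

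Chromosome X stood out for one-directional summits. It held 399 members, 24.5% (22.4 to 26.6%), on 15.7% of the one-directional sequence, which is 107 summits per Mb (96.5 to 118). The autosomal densities ran from 39.0 per Mb on V (222 members) through 54.5 on IV (223), 61.1 on II (243) and 80.7 on III (241) to 89.8 on I (303). The interval of X does not overlap those of II, III, IV and V, and overlaps that of I (80.0 to 100.6). For divergent summits X was not the densest: it held 32 of 547 (5.85%), close to its 5.48% of divergent sequence. Its divergent density of 249.8 per Mb, which rests on only 32 summits, lay below those of III (361 per Mb) and I (303). It lay above those of II (217), IV (200) and V (141), beside 234 per Mb over all chromosomes. The X share differed by 18.6 points (15.6 to 21.3) between members and divergent summits, though the sequence open to each on X differs in the same direction. The ratio of one-directional to divergent density was 0.427 on X and 0.224 to 0.297 on the autosomes.

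Both replicates gave the highest one-directional density on X, with 107 per Mb in replicate 1 and 99.8 in replicate 2, and the lowest on V, with 34.9 and 37.9. By genes, 371 of 2723 on X held a member (13.6%), against 208 of 4914 on V (4.23%). Members on X had a median signal of 58.5 and lay a median of 289 bp upstream, against medians of 51.0 to 55.0 and 229 to 260 bp on the autosomes. Nuclear hormone receptor genes, ligand-regulated transcription factors of which worms have many, had 8 of their 16 members on X. The strongest 3, at nhr-48 (162), nhr-1 (113) and nhr-40 (83.9), lay there. The share of all tested receptor genes that lie on X is not given here. In the list as a whole 16 of 268 genes held a member (5.97%, 3.71 to 9.48%), an interval that includes the 7.8% of all genes.

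**Figure D3:**
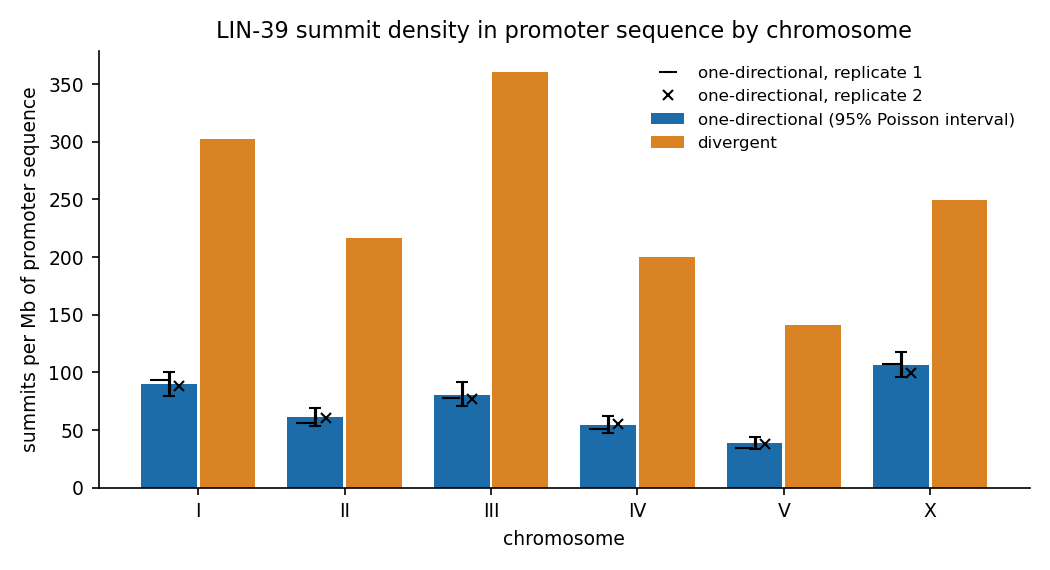
Summits per Mb of promoter sequence (vertical axis) on each chromosome, with one-directional summits in blue (95% exact Poisson interval) and divergent summits in orange; the dash and the cross give one-directional density in the strongest peaks of replicate 1 and of replicate 2. X has the highest one-directional density, 107 per Mb, and V the lowest, 39.0, while divergent density is highest on III, at 361 per Mb.

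Most members lay between genes, and few lay in coding exons. Between genes lay 1048 members (64.3%), on 44.3% of the one-directional sequence. Introns held 322 (19.7%, on 24.2% of the sequence), of which 268 were in the member's own gene, and 5′ UTRs held 97 (5.95%, on 4.82%). Coding exons held 39 (2.39%) on 20.6% of the sequence, and 3′ UTRs held 16 (0.98%) on 4.27%. Coding exons were 7.72% of one-directional summits in replicate 1 and 2.15% in replicate 2, the place where the replicates differed most in ratio. Exons of genes that code for no protein held 109 members (6.68%) on 1.85% of the sequence, a density of 247 per Mb against 99.2 per Mb between genes. Of these 109, 88 lay in genes annotated as ncRNA alone and 14 where an ncRNA and a tRNA gene overlap.

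Small RNA genes lay within 200 bp of 80 members (4.90%), against 11 divergent summits (2.01%), a difference of 2.89 points (1.07 to 4.35). They also lay that near to 190 of the 2072 summits at no promoter, a larger share than at members. At members the small RNA genes were tRNA genes in 39 cases, snoRNA genes in 31, snRNA genes in 7 and miRNA genes in 3. Median signals were 47.2 at the tRNA genes, 78.2 at snoRNA genes and 119.3 at snRNA genes, beside 54.1 over all members. Whether LIN-39 at these members belongs to the protein-coding start or to the small RNA gene was not tested.

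Most members faced the start that lies farthest upstream in its gene, while 301 (18.5%) were nearest to an alternative start more than 100 bp inside it. The share was 2.74% for divergent summits, and 22.5% of all 29314 protein-coding transcript starts were of this kind. A divergent summit needs an opposite-strand start in range, which a start inside its own gene may lack. How far the rule sets the contrast with divergent summits was not tested. The median inside distance of those 301 was 3997 bp. Members of rab-3, the GTPase of synaptic vesicles, and of F55A11.6 lay in introns.

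How often a gene held a member varied with its upstream neighbour. For 904 members (55.4%) the next gene upstream lay on the same strand, against 51.8% of all testable genes, and for 663 (40.7%) on the opposite strand, against 41.2%. Gaps to that neighbour were wider at members, with medians of 1304 against 869 bp on the same strand and 3770 against 1518 bp on the opposite strand. The opposite-strand difference follows at least in part from the rule, which calls most summits at short opposite-strand gaps divergent. Member gaps were measured from the nearest start, so at an alternative start they include part of the member's own gene. Where the same-strand neighbour ended within 200 bp, the spacing usual inside operons, 76 of 1865 genes held a member (4.08%, 3.27 to 5.07%). At wider same-strand gaps the share was 8.44 to 10.5%. Both replicates showed this, with 4.83 and 4.02% at gaps under 200 bp and 7.75 to 11.8% and 8.29 to 9.91% at wider gaps. At a gap under 200 bp much of the 1000 bp upstream range lies in the neighbouring gene. Coding exons held 7.92 members per Mb, against 99.2 between genes. The part this plays in the low share was not tested. Among genes with an opposite-strand neighbour at 2000 to 5000 bp, 238 of 1816 held a member (13.1%, 11.6 to 14.7%), the highest share of the classes examined. The shares of 1.12 to 1.16% at opposite-strand gaps under 1000 bp follow from the rule, which calls most summits there divergent.

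Members sat on a local rise in GC content. The median GC of the windows 50 bp to each side of the summit at members was 48.5% (quartiles 44.6 and 53.5%), the same as at divergent summits (48.5%), against 47.5% at summits of no promoter. It was 35.6% in windows 500 bp to either side of members and 33.7% in 23888 windows placed 251 bp upstream of one-directional starts. On the strand of the start, GC was 48.8 and 49.4% in the 50 bp before and after the summit and 34.6 to 36.9% near 500 bp away. From 50 to 150 bp toward the gene T made up 34.6 to 36.4% of bases and A 22.9 to 25.7%, a wider gap between T and A than on the far side, where A was 27.6 to 29.9% and T 30.6 to 33.1%. GC was higher at stronger members, with medians of 52.5, 49.5, 47.5 and 46.5% in the same 4 groups from strongest to weakest. The part that base composition plays in peak signal was not tested.

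The composite Hox and Pbx motif TGATNNAT was no more frequent at members than in promoter sequence at large. It matched within 50 bp of the summit, on either strand, at 106 members (6.50%, 5.40 to 7.80%), against 7.63% of flanking windows and 7.99% of all windows upstream of one-directional starts. Within 25 bp the share of members was 2.94%, and within 100 bp 12.8%. Members stood between divergent summits, of which 2.19% had it, and summits at no promoter, of which 12.6% had it. The differences were 4.31 points from divergent summits (2.36 to 5.91) and -6.10 points from summits at no promoter (-7.95 to -4.22). Replicate 1 had 4.56% at one-directional, 1.92% at divergent and 8.58% at no-promoter summits, and replicate 2 had 7.95, 3.74 and 13.8%, so the order was the same in both.

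Since the windows at members are GC-rich and this motif is AT-rich, the same letters in reverse order (TANNTAGT) were searched as well, a choice made after the other counts were seen. That word matched 1.23% of member windows and 3.93% of windows upstream of starts, a ratio of 0.312, against a ratio of 0.813 for the composite motif. Its matches, 0.731% at divergent summits and 1.74% at summits of no promoter, also lay below the 3.93% at starts. By distance from the summit, the composite motif showed no local peak at members: the 25 bp on either side of the summit held 0.858 and 0.613 matches per kb, against 0.687 to 1.25 per kb in bins more than 300 bp away. At summits of no promoter the same bins held 1.66 and 1.83 per kb, against 0.676 to 0.985 farther out. At divergent summits they held 0.0731 and 0.146 per kb, against 0.293 to 1.10 per kb.

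The 16 words the motif allows were unevenly used. TGATTGAT occurred at 21 members (1.29%, against 0.603% of promoter windows, a ratio of 2.14), TGATGGAT at 11 (2.24) and TGATGCAT at 8 (1.92). TGATAAAT, common in promoter windows at 1.06%, occurred at 6 members (0.368%), a ratio of 0.346. Word counts are small and the words differ in GC, so these ratios are descriptions. Members downstream of the start had the motif most often, 12.5% of 80 in the first 100 bp and 17.8% of 45 in the second. These shares rest on few summits. No set of windows downstream of starts was searched beside them, so they do not show enrichment there.

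The strongest member with the composite motif was that near T23G4.127, 971 bp upstream, with a signal of 211, 90.7 (rank 91) in replicate 1 and 125 (rank 45) in replicate 2. The sirtuin gene sir-2.2 followed with 167, 52.8 in replicate 1 and 125 in replicate 2, with TGATTGAT 38 bp from the summit. The next gene, unc-76, which codes for a FEZ-type protein of axon outgrowth and bundling, had 141, 65.3 in replicate 1 and 73.0 in replicate 2, with TGATTGAT 8 bp from the summit. The rab-3 member had 124, 77.7 in replicate 1 and 60.6 in replicate 2, with TGATGTAT 4 bp from it. The others of the 10 strongest were F55A11.6, scpl-3, cfim-2, pqn-65, C05G5.7 and ints-4, with signals from 97.8 to 139. Each of these 10 had an overlapping peak in both replicates' own lists, as nearly all members did (1566 of 1631 in replicate 1, 1622 in replicate 2). That overlap was largely set in advance and is no independent support. Of the 10, 3 lay within 200 bp of a small RNA gene (F55A11.6 and cfim-2 of snoRNA genes, C05G5.7 of a miRNA gene).

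Several GC-rich or GA-rich motifs were more frequent at members than upstream of starts. GAGAGA matched 465 members (28.5%, 26.4 to 30.7%), against 7.08% of windows upstream of starts. The share was 18.1% at divergent summits, 10.4 points lower (6.36 to 14.2), and 30.6% at summits of no promoter, a difference of -2.14 points whose interval (-5.08 to 0.831) spans 0. At members it read GAGAGA on the strand of the start in 10.8% and on the other strand in 18.9%. The Sp1-like CCCGCC matched 8.77% of members against 2.20% at starts, and the E2F motif TTCGCGC matched 3.19% against 0.691%. The run GCGCGC, added after seeing the sequences, matched 9.14% of members against 1.29% at starts and 14.3% of divergent summits.

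Motifs rich in A and T were rarer at members than at starts. TATAAA matched 2.76% against 12.4%, TTTTTTTT 3.31% against 13.7%, AGATAA, the GATA factor word, 3.25% against 6.75%, and the splice acceptor word TTTCAG 4.23% against 16.8%. None of these 4 differed between members and divergent summits by an interval clear of 0. A match is a string of letters in a window and no evidence of a bound factor.

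**Figure D4:**
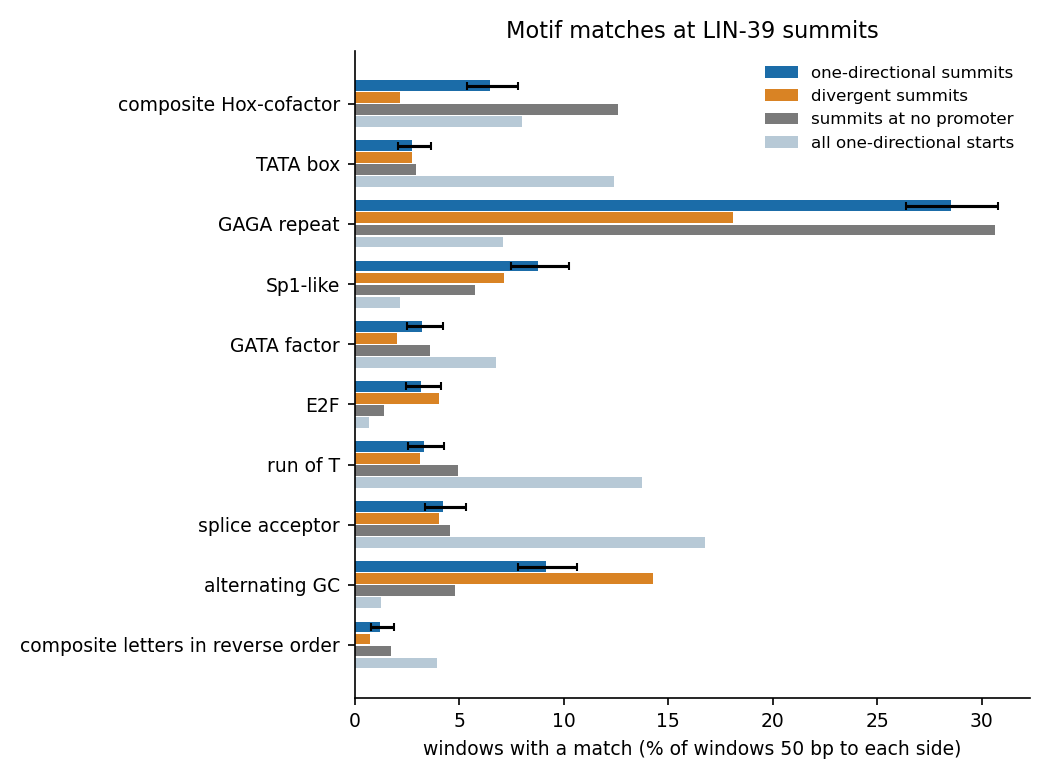
Share of windows, 50 bp to each side of the summit, with a match on either strand (horizontal axis, percent) for each motif (vertical axis), at one-directional summits (blue, 95% Wilson interval), divergent summits (orange), summits at no promoter (grey) and 23888 windows 251 bp upstream of one-directional starts (pale). The composite motif is at 6.50% of members, below the 7.99% of starts, while the GAGA repeat is at 28.5%, against 7.08% of starts.

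Genes with a member were also counted in 30 lists, by symbol or by name pattern, beside the 7.8% of all genes tested; 5 entries matched no protein-coding gene, and the lists share some genes. Among regulators of LIN-39 biology, 2 of 11 Hox and TALE cofactor genes held a member. Both were cofactor genes, unc-62 and ceh-20. The unc-62 summit had a signal of 103 (63.5 in replicate 1, 42.3 in replicate 2). It lay in an intron of unc-62, upstream of an alternative start inside the gene and within 200 bp of that start. The ceh-20 summit lay 745 bp upstream with 100.3 (65.6 in replicate 1, 51.4 in replicate 2). No Hox gene, lin-39 included, held a member. Of 15 genes that earlier studies linked with LIN-39, 2 did, with 1 in the strongest peaks of replicate 1 and 2 in those of replicate 2: egl-17, an FGF of vulval and sex myoblast signalling, 157 bp downstream with 62.4 (31.6 in replicate 1, 33.5 in replicate 2), and mig-13, which guides the anterior migration of the QR descendants, 302 bp upstream with 59.7 (12.3 in replicate 1, 43.1 in replicate 2). Of 24 vulval fate and morphogenesis genes 2 held a member (8.33%, 2.32 to 25.8%), egl-17 and ajm-1, a protein of epithelial junctions. That interval includes the 7.8% of all genes. So do those of the Hox and cofactor list (18.2%, 5.14 to 47.7%) and of the genes linked with LIN-39 (13.3%, 3.74 to 37.9%). The egl-17 and ajm-1 summits each lay within 200 bp of a tRNA gene. The gene unc-119, mutated in this strain, held none.

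Signalling and migration lists stood higher. The EGF-Ras and Notch list had 8 of 30 (26.7%), with 5 in the strongest peaks of replicate 1 and 6 in those of replicate 2. It was led by dpy-23, a clathrin adaptor subunit, at 173 (79.8 in replicate 1, 93.8 in replicate 2), lin-10, which localises the EGF receptor, at 75.5 and sem-5, the Grb2 adaptor, at 67.2. The Wnt list had 5 of 26 (19.2%), with pry-1, the Axin, at 104, cam-1, a Ror receptor kinase, at 94.9 and mom-5, a Frizzled, at 73.9. The migration and guidance list had 9 of 33 (27.3%), with gex-3, a subunit of the actin-regulating WAVE complex, at 177, unc-76 at 141 and unc-115, an actin-binding LIM protein, at 120.3. The heterochronic list, of genes that time larval stages, had 3 of 13 (23.1%, 8.18 to 50.3%), with 5 in the strongest peaks of replicate 1 and 3 in those of replicate 2. The 3 were lin-66 (170 in signal), lin-14 (96.3) and lin-28 (78.8). The cell cycle list had 6 of 26 (23.1%), led by cdk-7, mcm-4, a subunit of the replicative helicase, at 165, and lin-23, an F-box protein that limits cell division, at 86.7.

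The highest shares were in lists of neuronal, muscle and housekeeping genes. Pan-neuronal genes had 11 of 25 (44.0%, 26.7 to 62.9%), with 9 in replicate 1 and 10 in replicate 2. They were led by unc-108, a Rab2 GTPase (149, with 78.3 in replicate 1 and 66.2 in replicate 2), syd-2, a liprin of synapse assembly (138, with 85.7 in replicate 1 and 60.6 in replicate 2), and rab-3. The median signal of the 11 was 42.0, below the 54.1 of all members. The vacuolar proton pump had 7 of 16 (43.8%), led by vha-13, vha-12 and vha-15 at 127, 104 and 91.0. Body wall muscle genes had 10 of 28 (35.7%), with 13 in replicate 1 and 9 in replicate 2, led by the actins act-4 (137) and act-2 (72.9) and the alpha integrin pat-2 (73.9).

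Ribosomal protein genes had 24 of 69 (34.8%, 24.6 to 46.6%), with 23 in replicate 1 and 24 in replicate 2, and their median signal of 95.6 was above that of all members. They were led by rpl-3, rps-28 (249, with 119.8 in replicate 1 and 135 in replicate 2) and rpl-35 (234, with 75.1 in replicate 1 and 156 in replicate 2). A further 11 held a divergent summit. Translation factors had 9 of 28 (32.1%), with eef-1A.2, an elongation factor, at 191, eif-3.C at 154 and eif-3.B at 86.6, both subunits of the initiation factor eIF3. The respiratory chain had 8 of 30 (26.7%), with cox-5B (248), cox-5A (219.96) and cox-4 (89.7), all of cytochrome c oxidase. Kinesins and dyneins had 6 of 27 (22.2%), with klp-13 at 184, klp-11, a subunit of the ciliary motor kinesin-II, at 84.6 (no overlapping peak in replicate 1) and klp-7, which depolymerises microtubules, at 64.9.

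Other housekeeping lists were nearer the background. Mitochondrial ribosomal proteins had 8 of 63 (12.7%), with mrpl-23 (118.9), mrpl-15 (114.6) and mrpl-28 (89.6). Proteasome subunits had 3 of 29 (10.3%), pbs-3, rpt-1 and rpn-11 at 71.6, 48.8 and 41.9, with 0 in the strongest peaks of replicate 1 and 5 in those of replicate 2. Splicing factors also had 3 of 29, rsp-6 (188), snr-4 (155) and rsp-8 (129.7), and Rab GTPases had 2 of 20, rab-3 and rab-19 (44.5). In these 3 lists divergent summits were the more frequent, at 7 proteasome, 7 splicing and 5 Rab genes. No intestine marker and no hypodermis or seam marker of 12 each held a member or a divergent summit, and the interval for 0 of 12 reaches 24.2%. Of 12 germline markers, cgh-1, an RNA helicase, held one (97.0).

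Several large families had few members, and the shares of histone and ceh genes have intervals that include the 7.8% of all genes. Chemoreceptor names had 6 of 1162 genes (0.516%), with srh-2 (106), sre-23 (85.1) and srh-76 (48.8); that name pattern also takes in srgp-1, a GTPase activator. C-type lectins had 2 of 234, clec-140 (105) and clec-126 (75.7). F-box genes had 4 of 315, with fbxa-128 (55.5), fbxb-72 (45.6) and fbxa-141 (45.5), and collagens had 3 of 153, col-63 (45.2), col-185 (39.5) and col-61 (35.1). Neuropeptide and insulin-like genes had 4 of 139, with ins-39 (149), nlp-45 (59.7) and flp-23 (44.4). Histone genes had 3 of 63 (4.76%, 1.63 to 13.1%), his-37 (151), his-24 (115.1) and his-72 (109), and ceh homeobox genes 3 of 62 (4.84%, 1.66 to 13.3%), ceh-20, ceh-39 (70.1) and ceh-2 (36.4). The srh-2 and his-37 summits were uneven between replicates, with ranks of 14753 and 4253 in replicate 1 and 226 and 33 in replicate 2.

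**Figure D5:**
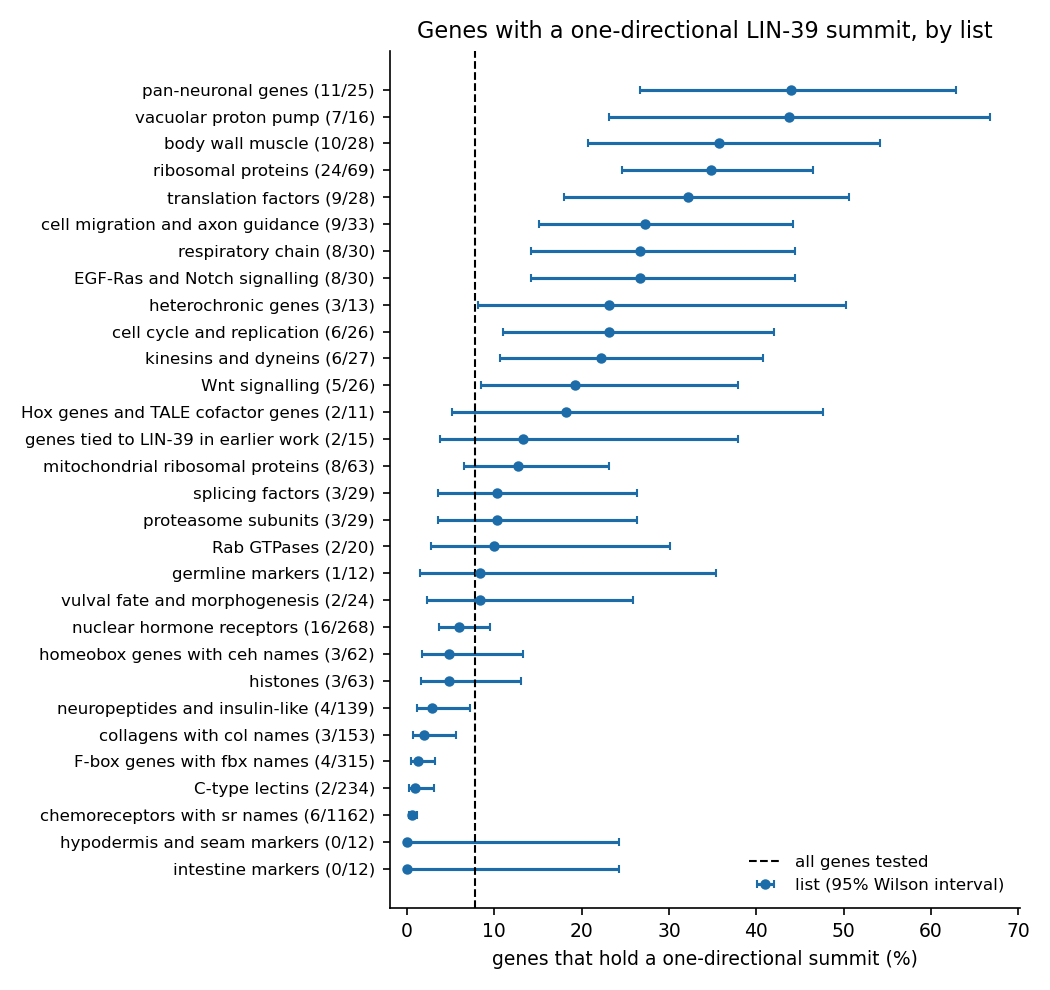
Share of genes with a one-directional summit (horizontal axis, percent, with 95% Wilson intervals) in each of 30 gene lists (vertical axis, with the count of genes and the genes tested); the dashed line is the 7.8% of all 19588 genes tested. Pan-neuronal genes are highest at 44.0%, and intestine and hypodermis markers are at 0.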

How the data were processed

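LIN-39 peaks of 2 ChIP-seq replicates of 1 group were analysed. Per the labels, the authors used fragments of 150 to 350 bp. The authors deposited peak lists on ce11 for each replicate, for both pooled, and for peaks that passed the irreproducible discovery rate (IDR) threshold. The pooled list is named as peaks and background that serve as input for IDR. No source used here names the caller, aligner or depth. In these deposited lists, the signal is the authors' value for each peak, which no label or header defines, and the −log10 of a q-value accompanies it. For all but 50 members the summit was the middle of a peak of set width. The lists on ce10 were not used here. Starts and gene places come from Ensembl release 115 on WBcel235, the sequence of ce11. Placement, intervals and motif searches used Python 3.11.15, numpy 2.4.6, pandas 2.3.3, scipy 1.17.1 and matplotlib 3.10.9, and placement was tested on simulated summits. A replicate's own strongest peaks are as many as the IDR list holds, 4250. Sequence densities count each base once. Members and gene lists were chosen with earlier results of these data known. Genes are named for the highest signals in the whole list, per chromosome, with the composite motif and per list, for the most summits, and at the rule's edges. Alternatives were each replicate alone, the 1000 strongest peaks, peak middles, outermost starts, a narrower range, overlap rules and motif windows.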

Additional observations from a re-analysis of the deposited data

How the results depend on the processing

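The 10 results compared were recomputed with each replicate alone, in the 1000 strongest peaks, with peak middles, with outermost starts and with a narrower range. Motif windows, overlap rules and neighbours of every biotype bear on 1 result each. With each replicate alone, the density ratio was 0.277 to 0.331, the median distance -264 to -257 bp, the share within 300 bp upstream 44.5 to 49.0%, the composite motif share 4.56 to 7.95% and the share of genes with a member 7.37 to 7.58%. In the 1000 strongest peaks, members were 42.7%, density 17.9 per Mb (fewer summits by construction), ratio 0.233, median distance -296 bp, composite motif 4.45%, X share 28.3%, both replicates 96.5%, same-strand neighbours 52.5% and genes 2.12%. With the outermost start of each gene, members were 32.3%, median distance -257 bp and genes 6.78%. With 500 bp upstream to 100 bp downstream, members were 31.1%, density 98.1 per Mb, ratio 0.187, median distance -186 bp, share within 300 bp 69.4%, X share 20.8%, same-strand neighbours 50.5% and genes 6.46%. The composite motif share was 2.94% within 25 bp and 12.8% within 100 bp, and the share in both replicates was 54.2% when summits had to lie within 100 bp. Causes of the shifts were not tested where the construction does not set them. No paired analysis was possible because there is 1 group. The depth is unknown, 2 replicates limit every value, and start annotation limits distances.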
